A study of Mus musculus with 2 samples.

Results

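Glutathione is made in a pair of ATP-dependent steps and spent by peroxidases, and 9 genes of this system were followed in tumours of mice treated with antibody to SLC7A11, the subunit of the cystine/glutamate antiporter that carries cystine inward. The genes were chosen by name. They are Gclc and Gclm, Gss, Gsr, Gpx1, Gpx4, Gpx8, Ggct and Slc1a5, and all 9 were present among the 34400 genes listed in either of the count tables. Transcripts were counted in single cells of CT26 tumours, in 2 libraries, CT26 being an established mouse colon carcinoma line. The SLC7A11-Ab library came from mice given SLC7A11-Ab and the Control library from mice given anti-IgG, both dosed with 10 mg/kg at intervals of 2 days once tumours measured 50 to 100 mm³. The injection site is uncertain, because the design text names the cecal junction and, elsewhere, subcutaneous tumours. The number of animals behind each library, their strain and their age are not given in the sources used here.

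Cystine taken up by SLC7A11 is reduced to cysteine, which glutamate-cysteine ligase joins to glutamate and glutathione synthetase then joins to glycine. Glutathione peroxidases use the product to reduce hydrogen peroxide and lipid hydroperoxides, and glutathione reductase restores it with NADPH. In tumour cells this system is best known for holding back ferroptosis, a death by lipid peroxidation that GPX4 prevents.

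Each group is 1 library, so differences could not be checked against replicates, and no p-value is given. Levels are UMIs (distinct captured transcripts) divided by the class total and given as CPM. Intervals are exact 95% intervals for counting error only. Ratios are SLC7A11-Ab over Control on the log2 scale. The SLC7A11-Ab library held 12153 barcodes and 143658800 UMIs and the Control library 13910 barcodes and 129044329 UMIs, with 39 barcode sequences shared. Filtering left 12061 SLC7A11-Ab and 13863 Control cells, whose median UMI counts were 7911 and 7586.

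Cells were sorted into classes by UMIs of marker genes. The keratin gate (Krt8 and Krt18, with at most 1 UMI of the leukocyte gene Ptprc) held 436 SLC7A11-Ab and 534 Control cells. The collagen gate, meant for fibroblasts, held 483 SLC7A11-Ab and 829 Control cells. The macrophage gate held 1108 and 877 cells, the neutrophil gate 120 and 111, the T cell gate 1042 and 211, and the NK cell gate 251 and 87, SLC7A11-Ab before Control in each. Transcripts of 4 Y-linked genes stood at 78.3 to 148 CPM in the 4 leukocyte classes, at 1.94 CPM in SLC7A11-Ab and 0.945 CPM in Control keratin-gated cells, and at 17.6 and 10.6 CPM in the collagen-gated cells. By Y-linked transcripts the collagen gate goes against its intended name, but by fibroblast markers it does not. Summed, 6 such markers that no gate used stood at 5399 CPM in SLC7A11-Ab and 5059 CPM in Control collagen-gated cells. In Y-negative cells, defined below, they summed to 1738 and 1958 CPM. Which cells the gate holds is uncertain, so they are called collagen-gated here. Tumour markers that no gate used set the keratin-gated cells little apart. They summed to 150 CPM in SLC7A11-Ab and 198 CPM in Control keratin-gated cells. The sums were 112 and 148 CPM in Y-negative cells, and 103 and 125 CPM in collagen-gated cells. In keratin-gated cells, Krt20 gave 1926 of 1943 such UMIs in SLC7A11-Ab and 2077 of 2094 in Control, and Epcam had none in either library. The keratin gate took only 3.615% of SLC7A11-Ab and 3.852% of Control cells, so a further class was added after seeing the data. These Y-negative cells met no gate, had no Y-linked UMI, at most 1 Ptprc UMI and at least 3000 UMIs, and numbered 5397 in SLC7A11-Ab and 8483 in Control. Lack of a Y-linked UMI does not by itself mark a tumour cell. Only 52.89% of SLC7A11-Ab and 38.88% of Control macrophages had such a UMI, and 43.67% and 38.86% of T cells. The submitters' label of goblet cells was not borne out in any class, since 7 goblet markers summed to at most 3.52 CPM in SLC7A11-Ab and 2.83 CPM in Control classes.

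Median depth differed between the libraries within a class, which bears on shares of cells. It was 24152.5 UMIs in SLC7A11-Ab and 15183 UMIs in Control keratin-gated cells, 13794 and 9586 UMIs in Y-negative cells, 7057 and 4513 UMIs in macrophages, and 3099.5 and 1880 UMIs in T cells. Shares below are therefore also given with each cell thinned to 1000 UMIs.

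The members are spread over the genome (mm10 coordinates from the GENCODE annotation). Gclc, the catalytic subunit of glutamate-cysteine ligase, lies at chr9:77754535-77794485 on the plus strand, and Gclm, its modifier subunit, at chr3:122245557-122270732 on the plus strand. Gss, glutathione synthetase, lies at chr2:155563181-155592810 on the minus strand, and Gsr, glutathione reductase, at chr8:33652523-33698163 on the plus strand. The peroxidase genes are Gpx1 at chr9:108338903-108340343, plus strand, Gpx4 at chr10:80047166-80056439, plus strand, and Gpx8 at chr13:113042753-113046410, minus strand. Ggct, a gamma-glutamylcyclotransferase of glutathione breakdown, lies at chr6:54982580-54992950 on the minus strand. Slc1a5, a glutamine carrier, lies at chr7:16781340-16798274 on the plus strand. Gss shares 22544 bases with Acss2 on the opposite strand, and Gpx8 lies within Cdc20b on the opposite strand. Gclm shares 14775 bases with Gm17494 on the opposite strand and 492 bases with the pseudogene Gm6061 on its own, and Gsr shares 144 bases with a snoRNA gene on its own strand. The strand setting of the counting is not given in the sources used here, so the assignment of reads to Gss, Gpx8, Gclm and Gsr is uncertain. The Gpx4 pseudogene Gpx4-ps2 had 1388 UMIs in SLC7A11-Ab and 1891 UMIs in Control, and the assignment of reads between it and Gpx4 is uncertain.

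The 3 peroxidases differ at the active site, which is why their coding sequence is shown there. GPX1 and GPX4 are selenoproteins that read an in-frame TGA as selenocysteine, whereas GPX8, a membrane protein of the endoplasmic reticulum, has a cysteine codon at the aligned place. The GENCODE transcript with the longest coding sequence was taken, for Gpx1 and Gpx4 among those with an annotated selenocysteine. Codon numbers count within that transcript and need not hold for other transcripts of the gene. Each line gives 45 coding bases of it, with the active-site codon in capitals.
Gpx1: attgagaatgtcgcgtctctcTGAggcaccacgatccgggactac
Gpx4: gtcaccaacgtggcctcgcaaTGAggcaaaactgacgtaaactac
Gpx8: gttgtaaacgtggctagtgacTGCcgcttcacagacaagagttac
The TGA of Gpx1 is codon 47 of 201 at chr9:108339451-108339453, and that of Gpx4 is codon 129 of 253 at chr10:80054737-80054739. The TGC of Gpx8 is codon 79 of 209 at chr13:113045661-113045663. Over these 45 bases Gpx1 and Gpx4 were identical at 25, Gpx4 and Gpx8 at 24, and Gpx1 and Gpx8 at 23.

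Gpx4, the peroxidase that reduces phospholipid hydroperoxides, was lower in the SLC7A11-Ab library in each of the 7 classes. In keratin-gated cells it stood at 132 CPM (interval 126 to 139) in SLC7A11-Ab and 223 CPM (214 to 232) in Control, a log2 ratio of -0.75 (-0.84 to -0.66). Y-negative cells had 140 CPM in SLC7A11-Ab and 227 CPM in Control, a log2 ratio of -0.69 (-0.72 to -0.66). Among leukocytes the log2 ratio was -0.71 (-0.84 to -0.58) in macrophages, -0.70 (-0.93 to -0.45) in T cells and -0.53 (-0.87 to -0.17) in NK cells. Collagen-gated cells gave -0.69 (-0.78 to -0.60). Each of these 6 intervals leaves out 0.

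Neutrophils gave the largest Gpx4 difference on the fewest counts. They held 34 Gpx4 UMIs in SLC7A11-Ab and 93 UMIs in Control, or 120 and 263 CPM, a log2 ratio of -1.12 (-1.75 to -0.55). Dcn codes for the proteoglycan decorin. Among neutrophils with at most 1 Dcn UMI, 11 Gpx4 UMIs in SLC7A11-Ab and 10 in Control were left. The log2 ratio there was -0.30 (-1.67 to 1.10). That interval includes 0, so the neutrophil difference was not detectable in those cells.

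Outside neutrophils, the Gpx4 difference was of like size from class to class. Minus the median ratio of the other classes, the log2 ratio was between -0.05 and 0.18 in those 6 classes, against -0.43 in neutrophils. In leukocytes with at most 1 Dcn UMI the Gpx4 log2 ratio was -0.62 (-0.81 to -0.42) in macrophages and -0.86 (-1.23 to -0.45) in T cells, and -0.28 (-1.02 to 0.56) in NK cells, where the interval includes 0. The median of all genes tested was itself below 0, at -0.17 in keratin-gated cells, -0.15 in Y-negative cells, -0.19 in macrophages and -0.21 in T cells. Relative to that median, Gpx4 was at -0.58 in keratin-gated cells and -0.54 in Y-negative cells. Of all genes tested, 8.50% in keratin-gated cells and 10.8% in Y-negative cells had a lower ratio than Gpx4.

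**Figure D1:**
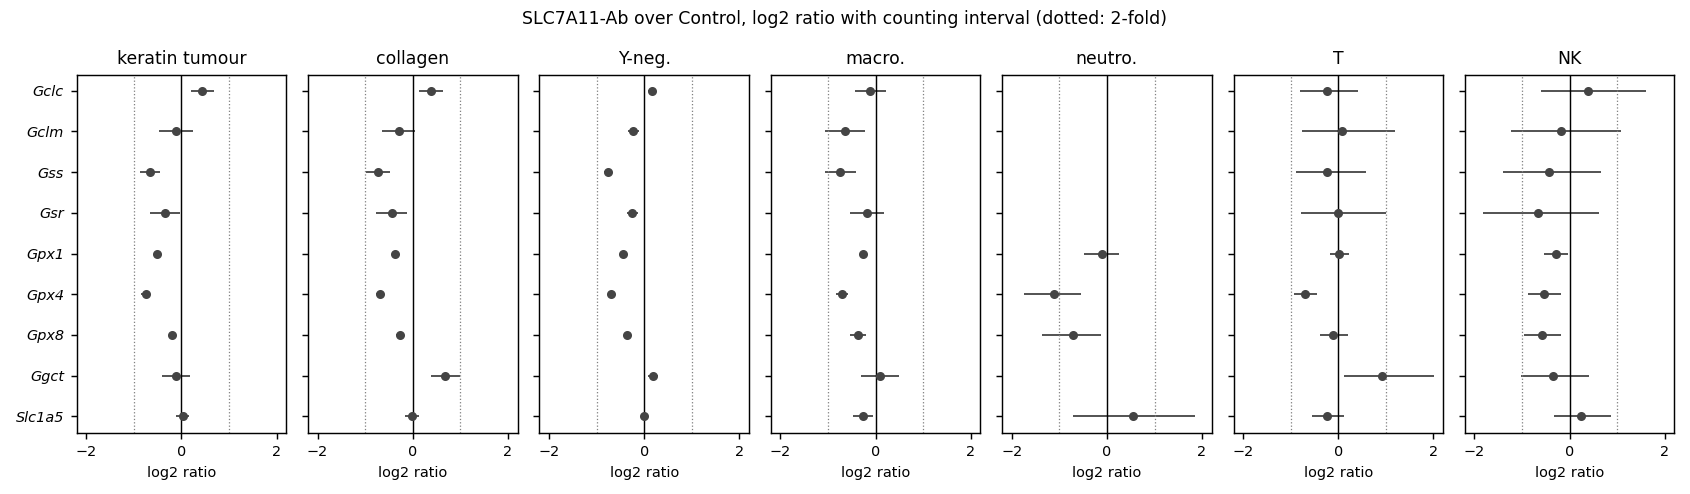
Log2 ratio of each member, SLC7A11-Ab over Control, in each class (x axis), with the exact interval for counting error as a bar and dotted lines at 2-fold. Gpx4 lies left of 0 in all 7 panels, at -0.75 in keratin-gated and -1.12 in neutrophil-gated cells; members under 20 UMIs in a class have no point.

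Gss, the enzyme of the second step of synthesis, was lower in SLC7A11-Ab in the 4 classes with the most counts. It had 22.3 CPM in SLC7A11-Ab and 37.9 CPM in Control Y-negative cells, a log2 ratio of -0.77 (-0.85 to -0.69), or -0.62 relative to the median of all genes. Keratin-gated cells had 24.8 CPM in SLC7A11-Ab and 39.2 CPM in Control, at -0.66 (-0.88 to -0.45), and collagen-gated cells were at -0.72 (-0.97 to -0.48). Macrophages had 15.3 CPM in SLC7A11-Ab and 25.6 CPM in Control, at -0.74 (-1.06 to -0.41), but the sign was not kept when cells were thinned to 1000 UMIs, where 19 SLC7A11-Ab and 11 Control UMIs gave 0.42 (-0.69 to 1.67). In T cells, with 135 and 19 UMIs in SLC7A11-Ab and Control, and in NK cells, with 29 and 13 UMIs, the intervals included 0.

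The subunits of glutamate-cysteine ligase, which sets the pace of synthesis, differed in direction in Y-negative cells. Gclc was higher in SLC7A11-Ab keratin-gated cells, with 29.7 CPM in SLC7A11-Ab and 21.9 CPM in Control, a log2 ratio of 0.44 (0.20 to 0.68). Collagen-gated cells gave 0.38 (0.14 to 0.63), and Y-negative cells gave 0.17 (0.09 to 0.25), with 29.1 CPM in SLC7A11-Ab and 25.9 CPM in Control. Relative to the median of all genes, Gclc was at 0.32 and Gclm at -0.08 in Y-negative cells. Gclm was lower in SLC7A11-Ab Y-negative cells, with 12.0 CPM in SLC7A11-Ab and 14.1 CPM in Control, at -0.23 (-0.35 to -0.11). In macrophages Gclm was at 9.42 CPM in SLC7A11-Ab and 14.7 CPM in Control, at -0.65 (-1.07 to -0.22). The interval for Gclm included 0 in keratin-gated, collagen-gated, T and NK cells. That for Gclc included 0 in macrophages, T cells and NK cells.

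Gpx1, which reduces hydrogen peroxide in the cytosol, was lower in SLC7A11-Ab keratin-gated and Y-negative cells. Keratin-gated cells had 310 CPM in SLC7A11-Ab and 439 CPM in Control, a log2 ratio of -0.50 (-0.57 to -0.44), and Y-negative cells had 316 and 428 CPM, at -0.44 (-0.46 to -0.41). The difference was -0.36 (-0.43 to -0.30) in collagen-gated cells, -0.26 (-0.31 to -0.21) in macrophages and -0.29 (-0.55 to -0.03) in NK cells. In T cells it was 0.01 (-0.18 to 0.22), with 260 CPM in SLC7A11-Ab and 257 CPM in Control, so a difference was not detectable there. Relative to the median of all genes, Gpx1 was at -0.33 in keratin-gated cells and -0.06 in macrophages.

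Gpx8 was lower in SLC7A11-Ab Y-negative cells, with 182 CPM in SLC7A11-Ab and 233 CPM in Control, a log2 ratio of -0.36 (-0.39 to -0.33) and -0.21 relative to the median of all genes. Keratin-gated cells were at -0.19 (-0.27 to -0.11), which is -0.02 relative to that median, and the sign changed to 0.01 with median-of-ratios scaling and to 0.05 with thinned cells. Collagen-gated cells were at -0.26 (-0.35 to -0.18).

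Gsr, which regenerates reduced glutathione, was slightly lower in SLC7A11-Ab Y-negative cells, with 13.8 CPM in SLC7A11-Ab and 16.4 CPM in Control, at -0.25 (-0.36 to -0.14). That is -0.10 relative to the median of all genes. Keratin-gated cells were at -0.34 (-0.65 to -0.02) and collagen-gated cells at -0.45 (-0.77 to -0.13), where the sign changed with other gates. The intervals for Gsr in macrophages, T cells and NK cells included 0. Slc1a5 stood at 78.7 CPM in SLC7A11-Ab and 79.4 CPM in Control Y-negative cells, a log2 ratio of -0.01 (-0.06 to 0.04). Its interval left out 0 in macrophages alone, at -0.27 (-0.48 to -0.06).

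Ggct, which releases 5-oxoproline from gamma-glutamyl amino acids, was the member with the most uneven ratio over classes. Collagen-gated cells had 21.6 CPM in SLC7A11-Ab and 13.5 CPM in Control, a log2 ratio of 0.68 (0.38 to 0.98). In the subset of them with a Y-linked UMI, 88 SLC7A11-Ab and 63 Control cells, 75 and 18 UMIs gave 1.09 (0.36 to 1.95). T cells had 178 UMIs in SLC7A11-Ab and 11 UMIs in Control, or 23.5 and 11.8 CPM, at 0.93 (0.11 to 2.02), which rests on the 11 Control UMIs. In T cells with at most 1 Dcn UMI the value was 0.78 (-0.23 to 2.23). Keratin-gated cells were at -0.11 (-0.40 to 0.19) and NK cells at -0.35 (-1.03 to 0.41), and the difference between classes was not tested.

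No member passed 2-fold in 6 of the 7 classes, a count to be read beside the share of all genes. In keratin-gated cells 0 of 9 members were 2-fold higher and 0 were 2-fold lower, against 10.3% and 3.49% of all genes. The same counts of 0 stood beside 11.3% higher and 3.66% lower in collagen-gated cells, 8.61% and 4.43% in macrophages, 10.1% and 6.96% in T cells, 10.9% and 4.66% in NK cells, and 11.6% and 4.26% in Y-negative cells. In neutrophils, where 4 of 9 members reached 20 UMIs, 0 were higher and 1, Gpx4, was lower, against 11.2% and 9.91%. The number of members with a log2 ratio above 0 was 2 in keratin-gated cells (37.1% of all genes), 2 in collagen-gated cells (39.7%), 1 in macrophages (35.6%), 1 of 4 in neutrophils (43.7%), 4 in T cells (35.7%), 2 in NK cells (44.7%) and 2 in Y-negative cells (39.6%). The median over the members was -0.19 in keratin-gated cells, beside -0.17 for all genes, and -0.25 in Y-negative cells, beside -0.15. In macrophages it was -0.27, beside -0.19, and in T cells -0.10, beside -0.21.

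Across cell classes, Gpx1 was highest in macrophages. Macrophages had 726 CPM in SLC7A11-Ab and 868 CPM in Control, ahead of the other 6 classes in both libraries, while Y-negative cells had 316 and 428 CPM. T cells were lowest by class sums in both, at 260 and 257 CPM, with NK cells overlapping them. Thinned to 1000 UMIs, 54.9% (51.9 to 57.9) of SLC7A11-Ab and 57.8% (54.5 to 61.1) of Control macrophages had a Gpx1 UMI, while 27.1% and 34.5% of Y-negative cells did. Without thinning the macrophage shares were 94.4% and 92.9%. In macrophages with at most 1 Dcn UMI the level was 935 CPM in SLC7A11-Ab and 1089 CPM in Control.

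By class sums Gpx8 was lower in the leukocyte classes than in Y-negative cells. The exception was Control neutrophils, whose interval, 198 CPM (154 to 250.2), held the Y-negative level. Gpx8 was lowest in macrophages by this measure, at 66.3 CPM in SLC7A11-Ab and 85.7 CPM in Control. These levels moved with doublet removal by Scrublet, to 27.7 and 19.7 CPM in macrophages. T cells moved from 106 and 113 CPM to 63.3 and 74.4 CPM. The Control interval for macrophages overlapped that for T cells, and the order among leukocytes changed with the measure. With equal weight per cell, macrophages had 30.2 and NK cells 30.1 CPM in SLC7A11-Ab, and in Control macrophages had 41.4 and T cells 36.5 CPM. Y-negative cells had 182 CPM in SLC7A11-Ab and 233 CPM in Control, keratin-gated cells 208 and 237 CPM, and collagen-gated cells 201 and 241 CPM. The collagen-gated cells with a Y-linked UMI were at 261 CPM in SLC7A11-Ab and 320 CPM in Control. Thinned, 2.38% (1.56 to 3.48) of SLC7A11-Ab and 4.06% (2.84 to 5.60) of Control macrophages had a Gpx8 UMI, against 15.8% and 20.04% of Y-negative cells. The thinned share was 3.63% of SLC7A11-Ab and 3.03% of Control T cells, and 1.82% of SLC7A11-Ab and 8.86% of Control NK cells. In neutrophils, on 32 SLC7A11-Ab and 29 Control cells, it was 15.6% (5.28 to 32.8) and 17.2% (5.85 to 35.8). Both of these intervals held the Y-negative share, so thinned neutrophils were not detectably below Y-negative cells.

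Leukocyte classes also held transcripts of tumour and stroma, which bears on Gpx8 most. Dcn does not by itself mark stroma here. By mean level per cell, it stood at 1941 CPM in SLC7A11-Ab and 1840 CPM in Control Y-negative cells. Keratin-gated cells had 907 and 959 CPM, and collagen-gated cells had 4112 and 4678.5 CPM. Giving each cell equal weight, Dcn in macrophages stood at 0.143 of its Y-negative level in SLC7A11-Ab and 0.147 in Control. Gpx8 stood at 0.171 and 0.179 in the same cells, and between 0.157 and 0.275 in neutrophils, T and NK cells of both libraries, where Dcn stood between 0.191 and 0.250. Macrophages with at most 1 Dcn UMI held Gpx8 at 14.8 CPM in SLC7A11-Ab and 26.7 CPM in Control. No library difference in Gpx8 is read in leukocytes, and the part of tumour and stromal RNA in their Gpx8 UMIs was not tested. For Gpx1 in macrophages the same quotient was 2.67 in SLC7A11-Ab and 2.44 in Control, above that of Dcn, Sparc and Krt18. By class sums it was 2.29 and 2.03, and some rarer tumour or fibroblast markers were above it. Among them, Postn was at 3.81 in SLC7A11-Ab and 4.02 in Control, on 54 and 15 macrophage UMIs. Krt8 was at 5.27 in SLC7A11-Ab, on 27 UMIs, but at 1.18 in Control. The 76.1% of SLC7A11-Ab and 80.5% of Control macrophages with at most 1 Dcn UMI held 50.4% and 55.1% of the UMIs of the class. They held 11.2% and 17.2% of its Gpx8 UMIs and 65.0% and 69.1% of its Gpx1 UMIs. Their share of its Dcn UMIs, 4.36% and 4.57%, is low by the choice of cells. Their median depth was 5979 and 3949 UMIs, against 7057 and 4513 UMIs in the whole class.

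**Figure D2:**
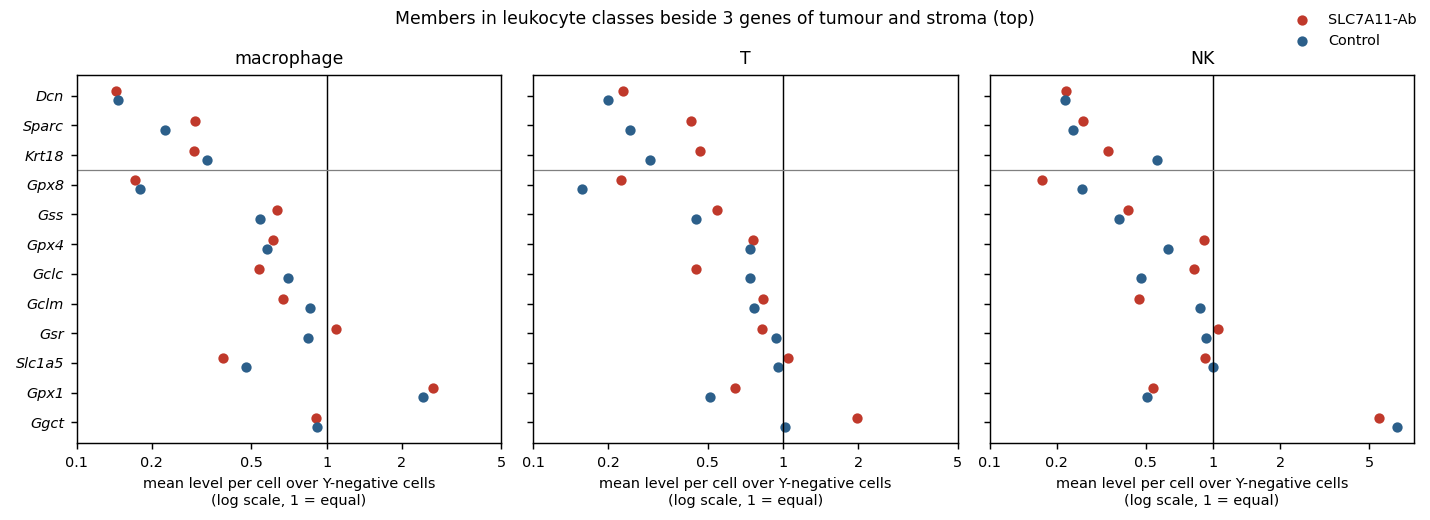
Mean level per cell in macrophages, T cells and NK cells over that in Y-negative cells of the same library (x axis, log scale, 1 marks equal), for Dcn, Sparc and Krt18 above the line and the members below it. Gpx8 lies beside Dcn in macrophages (0.171 in SLC7A11-Ab, 0.179 in Control), Gpx1 lies at 2.67 and 2.44, and Ggct in NK cells at 5.55 and 6.62.

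Ggct was highest in NK cells in both libraries. NK cells had 38.6 CPM (29.4 to 49.7) in SLC7A11-Ab and 48.5 CPM (31.4 to 71.5) in Control, on 59 and 25 UMIs. Y-negative cells had 16.1 and 14.1 CPM. With equal weight per cell, the NK mean was 84.3 CPM in SLC7A11-Ab and 86.6 CPM in Control, or 5.55 and 6.62 times the Y-negative mean. Thinned, 6.36% (3.52 to 10.4) of SLC7A11-Ab and 7.59% (2.84 to 15.8) of Control NK cells had a Ggct UMI, while 1.57% and 1.40% of Y-negative cells did. The neutrophil interval overlapped that of NK cells in both libraries, at 9.92 to 50.8 CPM in SLC7A11-Ab and 6.23 to 36.9 CPM in Control.

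The other members also varied over classes. In Control the highest class was 3.43 times the lowest for Gclm and 2.87 times for Slc1a5. The lowest class was neutrophils for both, on 2 and 11 UMIs. By class sums, Gss in macrophages stood at 0.69 of its Y-negative level in SLC7A11-Ab and 0.67 in Control. In T cells Gss stood at 0.80 and 0.54 of that level. Slc1a5 was at 43.8 CPM in SLC7A11-Ab and 52.8 CPM in Control macrophages, below T cells at 76.3 and 89.2 CPM and Y-negative cells at 78.7 and 79.4 CPM. With equal weight, macrophages had 0.386 and 0.478 of the Y-negative Slc1a5 level and T cells 1.05 and 0.956. By class sums Gpx4 was lowest in macrophages, at 96.8 CPM in SLC7A11-Ab and 158 CPM in Control. The macrophage interval overlapped that of neutrophils in SLC7A11-Ab and those of T and NK cells in Control. With equal weight the order of macrophages and neutrophils turned, with macrophages at 84.4 CPM in SLC7A11-Ab and 130.2 CPM in Control and neutrophils at 79.7 and 124 CPM. For Gclc, Gclm and Gsr, 5 or 6 of the 6 neighbouring pairs of classes in the order of levels had overlapping intervals in each library.

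**Figure D3:**
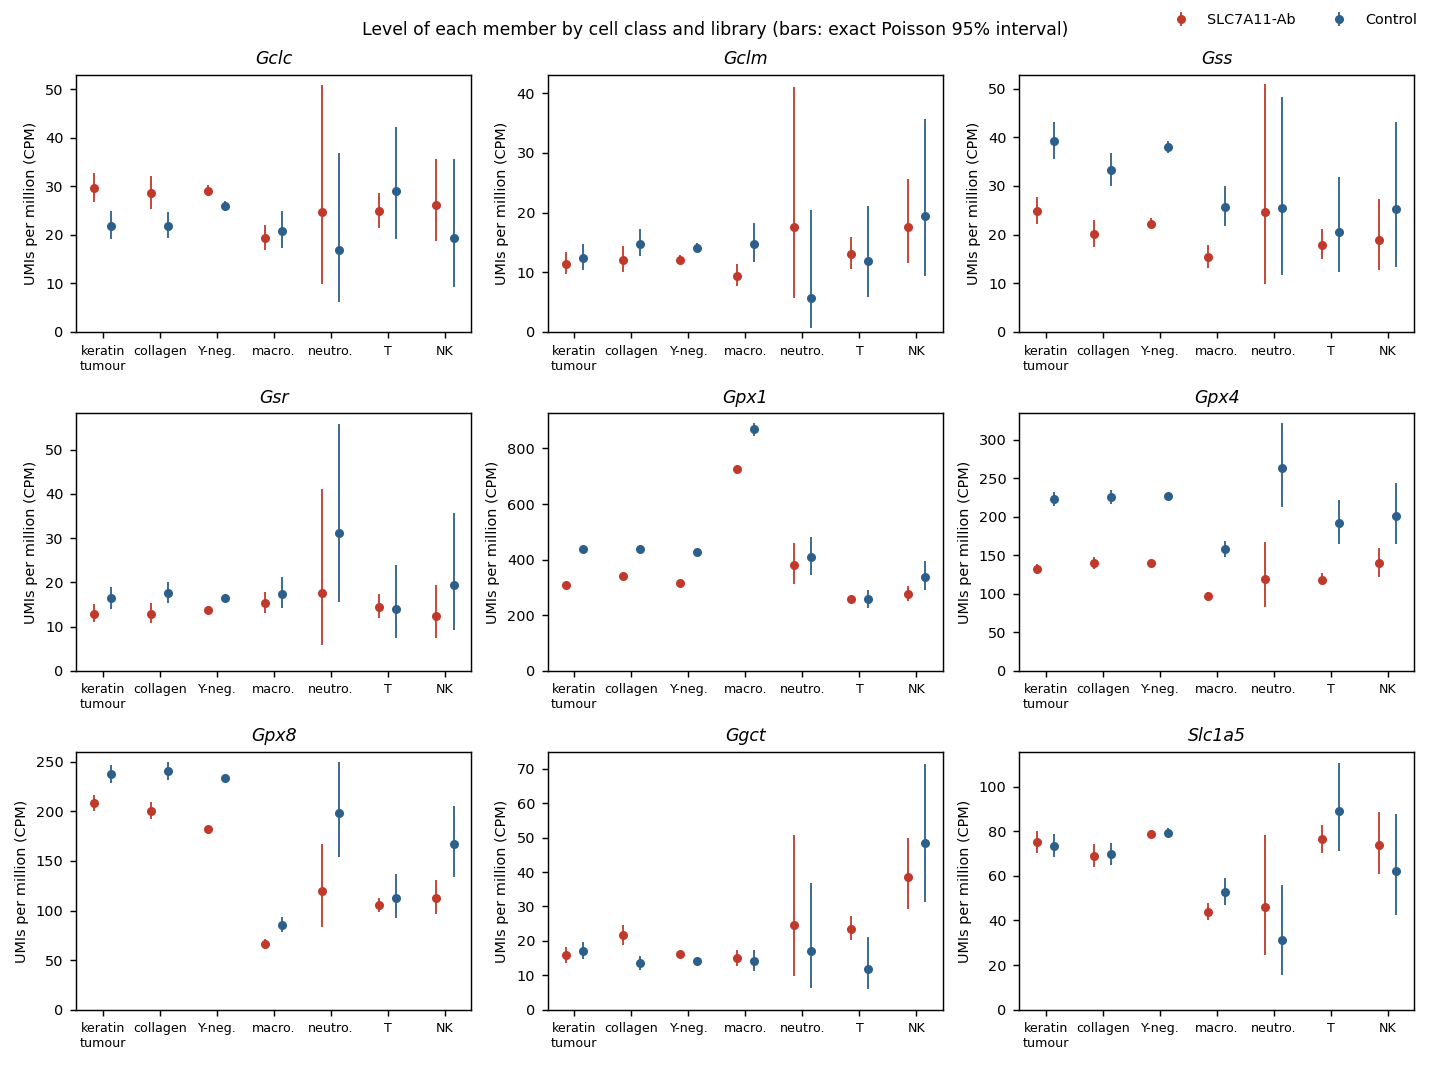
Level of each member in CPM (y axis, from 0) by class, with SLC7A11-Ab in red left of Control in blue and bars for the exact Poisson 95% interval. Gpx1 is highest in macrophages (726 CPM in SLC7A11-Ab, 868 CPM in Control) and Gpx8, by these class sums, lowest there (66.3 and 85.7 CPM).

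**Figure D4:**
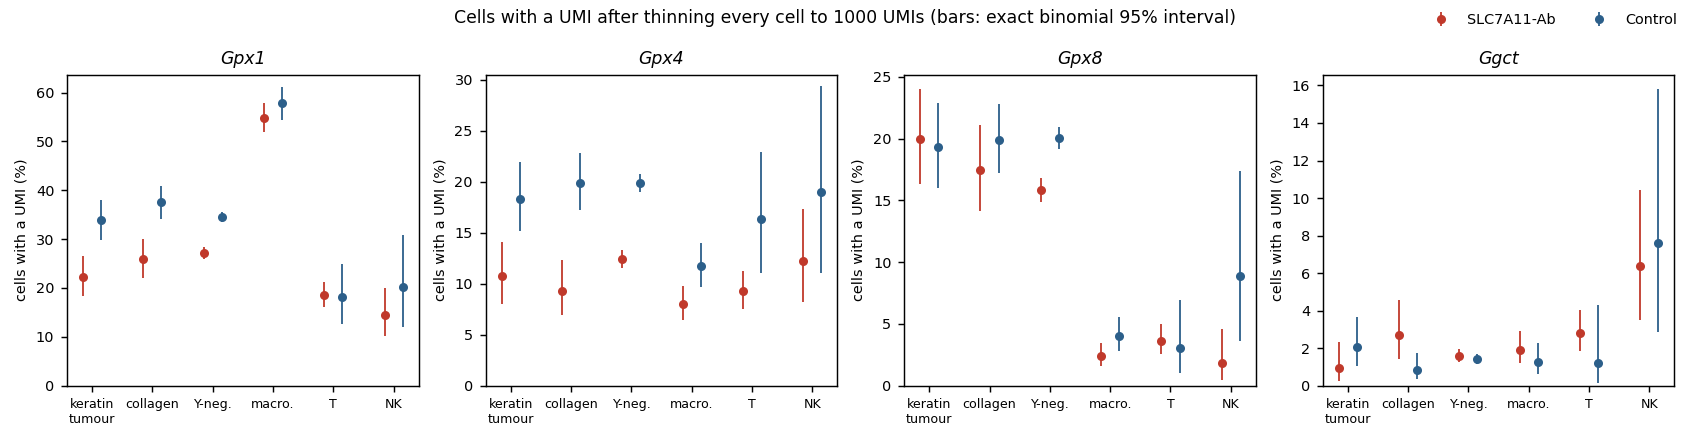
Percent of cells with a UMI of Gpx1, Gpx4, Gpx8 or Ggct (y axis, from 0) by class after thinning to 1000 UMIs, with SLC7A11-Ab in red left of Control in blue and bars for the exact binomial 95% interval; neutrophils are left out, with 32 and 29 cells deep enough. For Gpx4, 12.4% of SLC7A11-Ab and 19.9% of Control Y-negative cells had a UMI.

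Within the Y-negative cells, members differed with the cell cycle. Cycling cells, with at least 2 UMIs of Mki67 and Top2a, numbered 1978 in SLC7A11-Ab and 2930 in Control, at median depths of 19651 and 14006.5 UMIs, against 10744 and 7967 UMIs in other cells. Gclm was higher in cycling cells, with a log2 ratio of cycling over other cells of 0.50 (0.32 to 0.69) in SLC7A11-Ab and 0.43 (0.27 to 0.59) in Control. In SLC7A11-Ab it stood at 14.1 CPM in cycling and 9.92 CPM in other cells, and in Control at 16.3 and 12.1 CPM. Gss was lower in cycling cells, at -0.23 (-0.36 to -0.10) in SLC7A11-Ab and -0.57 (-0.67 to -0.47) in Control. Gpx8 was lower in cycling cells, at -0.19 in SLC7A11-Ab and -0.24 in Control, and Gpx1 likewise, at -0.13 and -0.21. Gsr was higher in cycling cells, at 0.25 (0.08 to 0.42) and 0.18 (0.03 to 0.33). In keratin-gated cells the Gclm interval included 0 in both libraries, at -0.12 (-0.62 to 0.41) in SLC7A11-Ab and 0.39 (-0.18 to 1.02) in Control. There, Gss was lower in cycling cells, at -0.43 (-0.76 to -0.09) and -0.40 (-0.69 to -0.10), and so was Gpx8, at -0.37 (-0.48 to -0.26) and -0.14 (-0.26 to -0.01). The part of depth in these differences was not tested.

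CD8 and CD4 T cells were compared on few CD4 cells, 70 in SLC7A11-Ab and 14 in Control. Gclm was lower in CD8 cells of the SLC7A11-Ab library, with 55 UMIs in CD8 cells and 10 UMIs in CD4 cells, a log2 ratio per class total of -1.75 (-2.68 to -0.56). The Control library had 5 Gclm UMIs in CD8 and 1 in CD4 cells. For the other 8 members the interval of CD8 over CD4 included 0 in both libraries.

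Genes with the most similar pattern were found by Pearson's r of log2(CPM + 1) over the 12 class-by-library sums, among 9849 genes. The sums share 2 libraries and some tumour RNA, and r is a description. Closest to Gpx1 were Ctsz (0.97), Asah1 (0.97) and Ctsb (0.96), all coding for lysosomal enzymes. Closest to Gpx8 were Cd34 (0.98), Baiap2l1 (0.97) and Ptges (0.97), and closest to Gpx4 were R3hcc1 (0.98), Rnaseh2a (0.97) and Wdr45 (0.96). Closest to Slc1a5 were Trim59 (0.97), Naa15 (0.96) and Smarca5 (0.94). For Gsr they were Ppox (0.97), Rpp38 (0.93) and Notch2 (0.91), and for Gclc Tnk2 (0.94), Pip4p2 (0.87) and Gars (0.86). Gclm was closest to Zfp324 (0.93), Dus3l (0.92) and Slc17a9 (0.90), Gss to Psmg3 (0.92), Ttc8 (0.91) and Pdzd11 (0.91), and Ggct to Nkrf (0.88), Clcf1 (0.86) and Prpf19 (0.85). Among the members, Gss followed Gpx8 (0.72) and Gpx4 (0.72), and Gclc and Gclm had an r of 0.32.

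Around the members, a wider list of 70 glutathione genes was counted, of which 69 were in the tables. In Y-negative cells 62 of them had at least 20 UMIs over both libraries, of which 9 were 2-fold higher and 3 2-fold lower in SLC7A11-Ab, beside 11.6% and 4.26% of all genes. In macrophages 8 were higher and 2 lower of 59, beside 8.61% and 4.43% of all genes, and in T cells 10 and 2 of 56, beside 10.1% and 6.96%. Keratin-gated cells had 8 higher and 0 lower of 58, beside 10.3% and 3.49%, and collagen-gated cells 10 and 3 of 63, beside 11.3% and 3.66%. NK cells had 13 and 2 of 49, beside 10.9% and 4.66%, and neutrophils 4 and 2 of 30, beside 11.2% and 9.91%.

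The ratio of Pgls, the largest of the list in Y-negative cells, lay between 3.74 and 4.25 in all 7 classes, in neutrophils on 27 SLC7A11-Ab and 2 Control UMIs. Whether both libraries were processed alike is not given in the sources used here, and 2768 genes were listed for SLC7A11-Ab alone and 3106 for Control alone. Ratios such as those of Pgls and Trnau1ap therefore compare the 2 libraries, and so do those of the members, Gpx4 included. The part of processing in all of these ratios was not tested. Trnau1ap, which binds the selenocysteine tRNA, was at 89.6 CPM in SLC7A11-Ab and 12.6 CPM in Control Y-negative cells, a log2 ratio of 2.83 (2.74 to 2.92). Sephs2, which makes selenophosphate, was at 2.76 (2.03 to 3.68) in keratin-gated cells and 2.24 (1.62 to 2.99) in macrophages. Of the 8 genes of selenoprotein synthesis, which place selenocysteine in GPX1 and GPX4, 3 were 2-fold higher and 0 2-fold lower in Y-negative cells, and the median of the 8 was 0.39, beside -0.15 for all genes. Pgls, of the pentose phosphate pathway that supplies NADPH, differed more than any other named gene, at 129 CPM in SLC7A11-Ab and 9.44 CPM in Control Y-negative cells, or 3.77 (3.67 to 3.88). Its log2 ratio was 4.25 in keratin-gated cells, 3.74 in macrophages, 3.89 in T cells and 4.14 in NK cells. Glrx2, a mitochondrial glutaredoxin, was at 2.67 in Y-negative cells and 2.76 in T cells.

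Of the antiporter genes, Slc3a2 was higher in SLC7A11-Ab in each of the 7 classes and Slc7a11 in some. Over all barcodes Slc7a11, the antibody's target, was at 25.5 CPM in SLC7A11-Ab and 20.2 CPM in Control, a log2 ratio of 0.34 (0.27 to 0.41), where the libraries also differ in class make-up. The interval of Slc7a11 included 0 in keratin-gated cells at 0.15 (-0.14 to 0.44), collagen-gated cells at -0.02 (-0.31 to 0.26), macrophages at 0.14 (-0.13 to 0.43) and NK cells at 0.35 (-0.90 to 2.01). It left out 0 in Y-negative cells, at 0.33 (0.24 to 0.43), and in T cells, at 1.09 (0.25 to 2.24) on 182 SLC7A11-Ab and 10 Control UMIs. Its partner Slc3a2 was at 306 CPM in SLC7A11-Ab and 85.6 CPM in Control, at 1.84 (1.81 to 1.87). An antibody acts on the protein, so these transcript levels do not check the labels. In neutrophils Slc7a11 was at 285 CPM in SLC7A11-Ab and 139 CPM in Control, at 1.04 (0.51 to 1.58), and Slc3a2 at 2.13 (1.56 to 2.77). In NK cells Slc3a2 was at 2.33 (1.83 to 2.91).

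The lower genes named by the rule were Dpep2, Ggt1, Ggt7, Gls2 and Slc25a40. Dpep2, a membrane dipeptidase, was at 23.1 CPM in SLC7A11-Ab and 65.2 CPM in Control macrophages, a log2 ratio of -1.50 (-1.73 to -1.27). Ggt1, a gamma-glutamyltransferase, was at -1.68 (-2.11 to -1.29) in Y-negative cells, where Ggt7 was at -1.21 (-1.44 to -0.98) and the glutaminase Gls2 at -1.26 (-1.86 to -0.71). Slc25a40, a mitochondrial glutathione carrier, was at -1.06 (-1.66 to -0.38) in T cells.

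**Figure D5:**
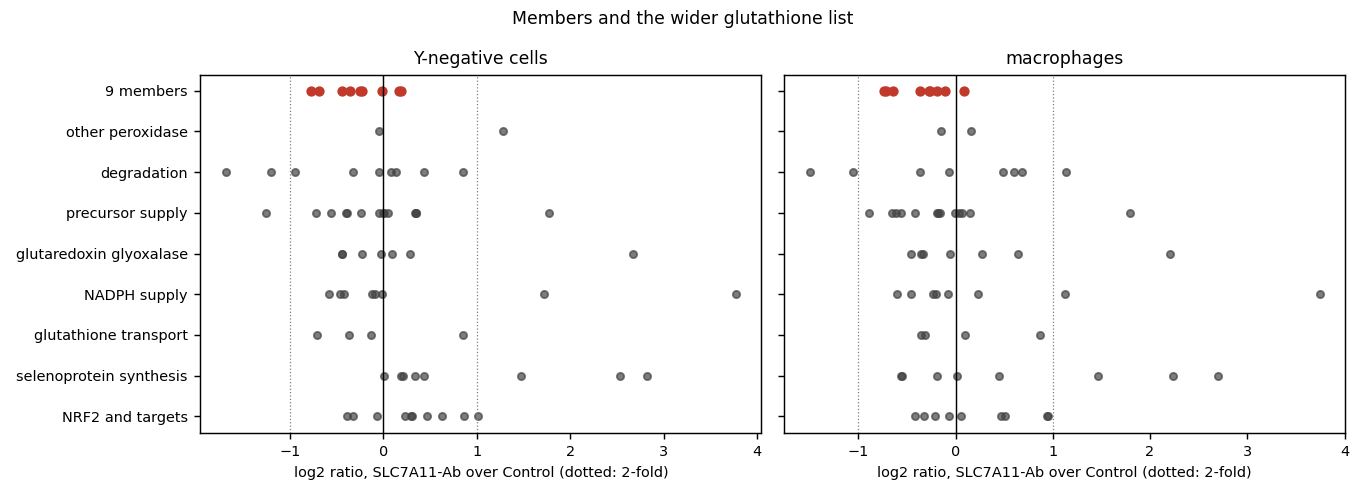
Log2 ratio, SLC7A11-Ab over Control (x axis, dotted lines at 2-fold), of the 9 members in red and of the genes of 8 wider lists in grey, in Y-negative cells and macrophages. The members lie between -0.77 and 0.19 in Y-negative cells, while Pgls, among the NADPH genes, lies at 3.77.

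Promoters were read for 6 members from RefSeq sequence of build GRCm38.p6, over the 250 bases before the start. The core of the antioxidant response element, TGACNNNGC on either strand, was found in those of Gclm and Ggct and in 10.2% of 32851 promoters. The match began 134 bases before the start of Gclm and 174 bases before that of Ggct. These 2 members had ratios of opposite sign in Y-negative cells, at -0.23 for Gclm and 0.19 for Ggct. The 250 upstream bases of both are shown in their own strand's direction, with the match in capitals, at chr3:122245307-122245556 (plus strand) and chr6:54992868-54993117 (minus strand). A match is a description of letters and not a site.
Gclm: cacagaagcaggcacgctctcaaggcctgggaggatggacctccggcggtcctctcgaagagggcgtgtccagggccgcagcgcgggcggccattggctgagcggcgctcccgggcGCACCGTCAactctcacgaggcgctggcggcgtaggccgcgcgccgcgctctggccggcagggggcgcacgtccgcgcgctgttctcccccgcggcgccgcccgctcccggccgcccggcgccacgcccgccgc
Ggct: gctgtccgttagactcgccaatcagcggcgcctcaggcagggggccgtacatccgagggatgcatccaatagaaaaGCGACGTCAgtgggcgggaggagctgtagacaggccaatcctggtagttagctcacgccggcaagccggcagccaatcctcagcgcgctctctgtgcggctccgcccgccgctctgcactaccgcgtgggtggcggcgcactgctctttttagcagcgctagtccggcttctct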

How the data were processed

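Per the labels' protocols, dissociated tumour cells went through the 10x Genomics 3' chemistry. Each library was deposited as whole-number UMI counts per gene and barcode, and the submitters' processing notes name Cell Ranger 7.2.0, Seurat and build mm10. Strand setting and any ambient RNA correction are not given in the sources used here.

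The cell filter required 200 genes, 500 UMIs and a mitochondrial share below 20%. Classes were gated by UMIs of markers, barcodes that met more than 1 gate were set aside as mixed (125 in SLC7A11-Ab, 44 in Control), and Scrublet in scanpy 1.11.5 was an alternative. UMIs were summed per class and library. For log2 ratios, 0.5 was added to each sum before division by the class total, for genes with at least 20 UMIs over both libraries, with exact conditional binomial 95% intervals. CPM have exact Poisson and shares exact Clopper-Pearson 95% intervals. The ratio step was tested on simulated data. Python 3.11.15, numpy 2.4.6, scipy 1.17.1 and pandas 2.3.3 were used.

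All 9 members are named in every class. From the wider list, up to 3 highest and 3 lowest ratios past 2-fold per class were eligible, with at least 100 UMIs and an interval leaving out 0, and named here are examples of these. Members and lists were chosen with earlier results of these data known. The Y-negative class, the quotient against it and the restriction to at most 1 Dcn UMI were chosen after seeing the data.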

Additional observations from a re-analysis of the deposited data

How the results depend on the processing

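No paired analysis was possible because each group holds 1 library, and for the same reason no replicate could be left out. In the 6 gated classes the counts of members past 2-fold moved as follows, and the cause was not tested. Y-negative cells were not part of these counts. In T cells the count of higher members was 1, Ggct, and not 0, with doubled gate minimums, Y-linked gates, Scrublet, median-of-ratios scaling and equal weight per cell. In collagen-gated cells the higher count was 1 (Ggct) with Y-linked gates, and 2 (Gclc and Ggct) with cells thinned to 1000 UMIs, where the lower count was 1 (Gpx4). In NK cells the lower count was 1 under Scrublet (Gpx8) and under equal weight (Gclm). In neutrophils the higher count was 1 under equal weight (Slc1a5) and with no UMI minimum (Gclm), and the lower count was 0 under equal weight and in cells with at most 1 Dcn UMI. In T cells with at most 1 Dcn UMI the lower count was 2 (Gclc and Gss).

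In the 6 gated classes 26 ratios had an interval that left out 0, and Y-negative ratios are not in this number. The sign was kept in 26 of 26 with a prior count of 2 and with equal weight. It was also kept in 26 of 26 with totals without mitochondrial, ribosomal and haemoglobin genes. It changed for Gsr in collagen-gated cells (0.44 with doubled gates, 0.03 with Y-linked gates), Gpx8 in macrophages (0.49 under Scrublet), Gpx8 in keratin-gated cells (0.05 thinned, 0.01 with median-of-ratios scaling) and Gss in macrophages (0.42 thinned). Minus the median of the other classes, 20 of 26 kept their sign. Median-of-ratios scaling moved the median of all genes to 0.02 in keratin-gated cells, against -0.17. Neutrophils fell under 50 cells with doubled gates, the stricter cell filter and thinning, which were not run there. Class values of the members moved too. Within their main interval stayed 116 of 216 under Scrublet and 190 of 216 with Y-linked gates. The number was 127 of 180 with doubled gates, 179 of 180 with the stricter cell filter and 26 of 180 thinned. Under Scrublet, Gpx1 in macrophages was at 892 CPM in SLC7A11-Ab and 1118 CPM in Control.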
